A study of Drosophila melanogaster with 8 samples.

Results

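The genes described here are 10 genes of the ecdysone and juvenile hormone systems of the fruit fly Drosophila melanogaster, chosen by symbol from a table of 13781 gene symbols. They are the receptor genes EcR, usp, Met and gce, the hormone response genes Eip74EF, Eip75B and Kr-h1, and the juvenile hormone breakdown enzyme genes Jhe, Jheh1 and Jheh2. All 10 had enough reads to be tested, among 9442 genes that were. Messenger RNA was measured in fly heads in 8 libraries of 3′ RNA-seq, a method that reads mainly transcript ends. Control flies carried Actin-gal4/+ (3 libraries), and knockdown flies carried Actin-gal4/+ with UAS-rowRNAi1/+ (row_RNAi1, 2 libraries) or UAS-rowRNAi2/+ (row_RNAi2, 3 libraries). Every group therefore held the driver, a yeast transcription factor under the Actin promoter that acts in most tissues, and the control label names no UAS insertion. The knockdown target, row, encodes a zinc-finger chromatin protein. All flies were kept at 25 °C with 12 hours of light and 12 hours of dark, and had 3 days to recover from CO2 before collection. The labels give neither age nor sex here, and they do not say whether the libraries within each genotype come from independently collected flies, so p-values reflect how these samples vary, and that variation may be technical.

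Ecdysone is the steroid hormone of insects. It acts through a nuclear receptor made of EcR and its partner Ultraspiracle (usp), and the early genes Eip74EF and Eip75B encode transcription factors that the receptor switches on. Juvenile hormone is a sesquiterpenoid that binds the paralogous receptors Met and Gce, which induce the zinc-finger gene Kr-h1. It is broken down by an esterase (Jhe) and by epoxide hydrolases (the Jheh genes). In adult flies both hormones are known for roles in reproduction, and ecdysone also for roles in memory and sleep.

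Libraries held 6230666 to 18046699 counts, and the 2 row_RNAi1 libraries were the deepest, at 17952015 and 18046699. The target row was lower in all 5 knockdown libraries, at 4.22 to 8.28 CPM (counts per 1e6 of a library total scaled with the TMM method) against 12.1 to 14.9 CPM in controls. All 12 head markers of neurons and eye were detected, and their summed level was 22959 to 23013 CPM in controls, 20843 to 21510 CPM in row_RNAi1 and 21443 to 23577 CPM in row_RNAi2. Of the other marker lists, the 8 ovary and chorion genes summed to 2.23 CPM at most and the 9 testis and accessory gland genes to 4.18 CPM at most, with at least 3 and 2 of them at 0 in every library. The testis and accessory gland sums were at most 1.05 CPM in controls, 0.666 CPM in row_RNAi1 and 4.18 CPM in row_RNAi2. Mst84Da, Mst84Db, Mst98Ca, dj and ocn had reads only in row_RNAi2, at 13 counts or fewer per library. The 9 antennal markers summed to 35.7 to 99.0 CPM in controls, 21.97 to 66.9 CPM in row_RNAi1 and 16.2 to 19.9 CPM in row_RNAi2. Of these, 4 were lower in row_RNAi1 (10% of all genes) and 5 in row_RNAi2 (5.34% of all genes). The part of the antennal markers in the results below was not tested.

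Averaged over the lines and in row_RNAi1, the juvenile hormone breakdown genes had the largest log2 fold changes of the 10, and in row_RNAi2 Jheh1 and Jheh2 did. Jheh1 and Jheh2 fell in both lines, and Jhe rose in row_RNAi1. Averaged over the lines, 3 of the 10 genes passed the test, 1 higher and 2 lower, against 17.8% of all genes tested (9.24% higher, 8.56% lower). In row_RNAi1 5 passed, with Kr-h1 and Eip75B as further rises, 3 higher and 2 lower, against 21.2% of all genes (11.2% higher, 10% lower). In row_RNAi2 2 passed, both lower, against 10.8% of all genes (5.49% higher, 5.34% lower). Calls rest on the edgeR quasi-likelihood test in 1 model of the 3 groups, with an adjusted p (Benjamini-Hochberg, all 9442 genes) below 0.05. The median log2 fold change of the 10 genes was 0.07 averaged over the lines, where that of all genes was -0.01, and the plot of levels by library shows all 10. Both lines were compared with the same 3 controls. The count in row_RNAi1 was 3 without control replicate 3, without row_RNAi1 replicate 1 or without row_RNAi1 replicate 2, and 3 with DESeq2.

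**Figure D1:**
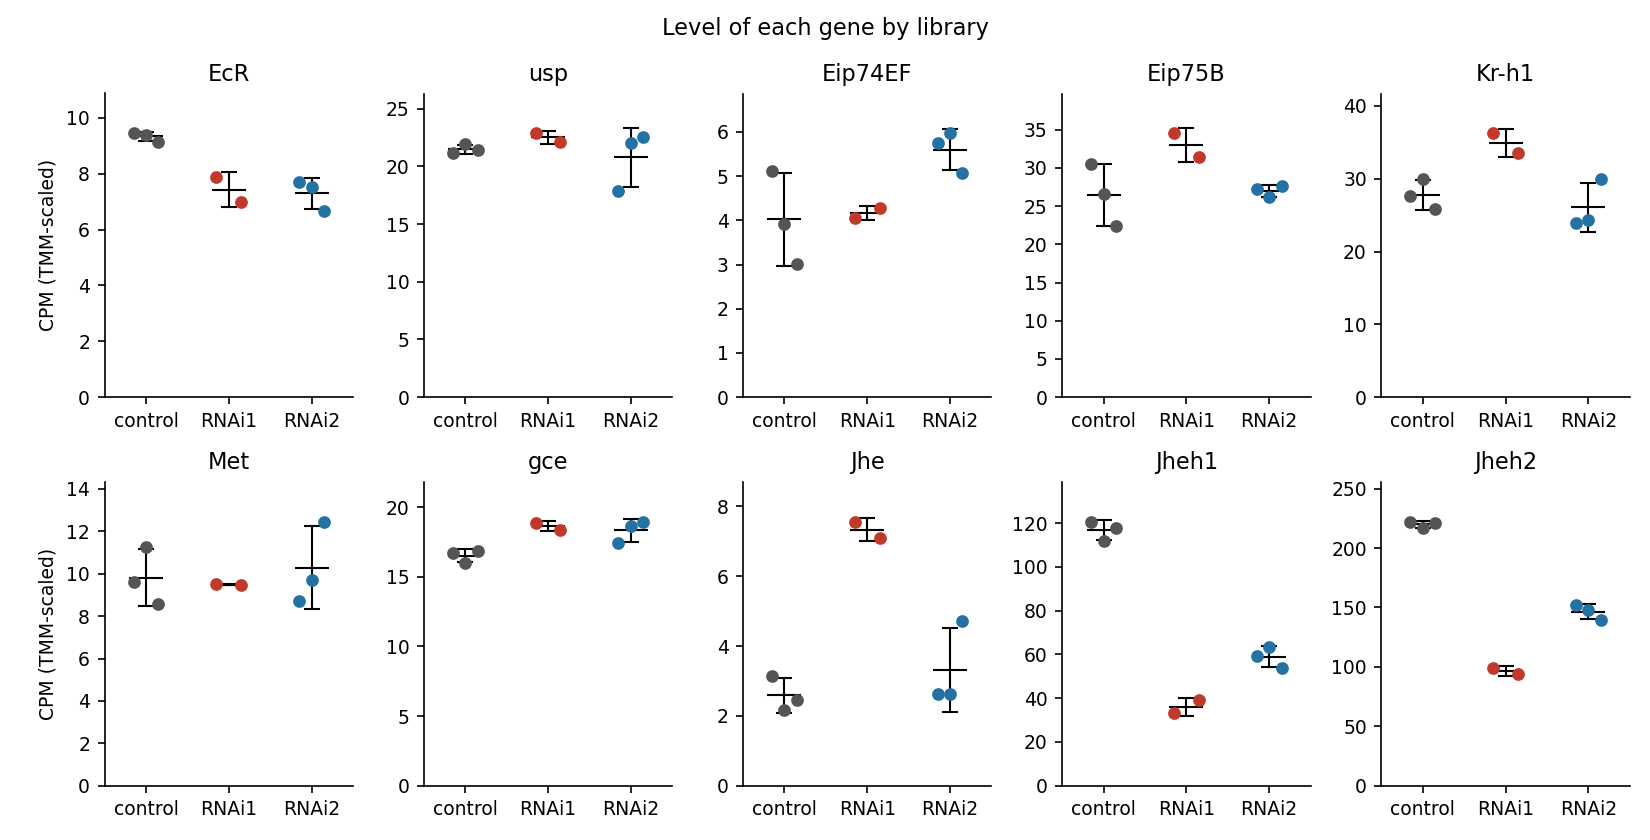
Level of each of the 10 genes in CPM (linear axes from 0) in the 3 control, 2 row_RNAi1 and 3 row_RNAi2 libraries, with a point for each library, a bar for the mean and error bars of 1 SD. For Jheh1 and Jheh2 all 5 knockdown points lie below all 3 control points, and for Jhe the 2 row_RNAi1 points lie above all others.

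Jheh1 encodes an epoxide hydrolase that opens the epoxide ring of juvenile hormone. It stood at 121, 112 and 118 CPM in the 3 control libraries, at 33.2 and 39.0 CPM in the row_RNAi1 pair, and at 59.2, 63.4 and 53.8 CPM in row_RNAi2. The 3 groups did not overlap, with controls highest and row_RNAi1 lowest. The group means were 117 ± 4.49 CPM among controls (mean ± SD, n = 3), 36.1 ± 4.12 CPM for row_RNAi1 (SD, n = 2) and 58.8 ± 4.81 CPM for row_RNAi2 (SD, n = 3), so that row_RNAi1 held 30.9% and row_RNAi2 50.4% of the control level. The log2 fold change was -1.69 in row_RNAi1 (SE 0.10, edgeR quasi-likelihood adjusted p = 1.09e-09) and -0.99 in row_RNAi2 (SE 0.09, adjusted p = 3.37e-07). The fall was smaller in row_RNAi2, by 0.70 on the log2 scale (SE 0.10, edgeR adjusted p = 9.07e-05).

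Jheh2, the neighbouring gene for the same kind of enzyme, fell in the same order of groups. Its levels were 222, 217 and 221 CPM in the 3 control libraries, 99.2 and 93.6 CPM in the row_RNAi1 pair, and 152, 147 and 139.8 CPM in row_RNAi2. Again no library of a group overlapped with another group. Row_RNAi1 held 43.8% and row_RNAi2 66.6% of the control mean. The log2 fold changes were -1.19 (SE 0.08, edgeR quasi-likelihood adjusted p = 4.29e-09) and -0.59 (SE 0.07, adjusted p = 1.05e-05), and the lines differed by 0.60 (SE 0.08, adjusted p = 3.82e-05). Jheh1 and Jheh2 passed in each line with the same sign, as did 8.13% of all genes. Permuting the 5 knockdown and 3 control libraries, exact and two-sided, gave p = 0.0179 for each of them, the smallest of its 56 arrangements.

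Jheh1 fell more than Jheh2. Within a library, the ratio of Jheh1 to Jheh2 counts was 0.543, 0.516 and 0.533 in controls, 0.335 and 0.417 in row_RNAi1, and 0.389, 0.43 and 0.385 in row_RNAi2. All 5 knockdown ratios lay below all 3 control ratios, with a mean log2 difference of -0.45. This was 1 of 3 pairs of related genes whose ratio was compared after the levels had been seen. The exact two-sided permutation test gave p = 0.0179, the smallest it can give. Adjusted over the 3 ratios it was 0.0536, above 0.05. A ratio that alone reaches the smallest p cannot go lower after this adjustment, so the adjusted value cannot decide. The ratio of EcR to usp, the partners in the ecdysone receptor, was 0.427 to 0.447 in controls and 0.296 to 0.431 in the knockdown libraries (exact permutation p = 0.0893, adjusted 0.134). Row_RNAi2 replicate 1, at 0.431, was the only knockdown library inside the control range. Leaving it out fixes the exact permutation p at 0.0286 before adjustment, the smallest the remaining libraries can give, so that value adds no support. The ratio of Met to gce, the receptor paralogs, was 0.510 to 0.703 in controls and 0.500 to 0.657 in the knockdown libraries (exact permutation p = 0.339).

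**Figure D2:**
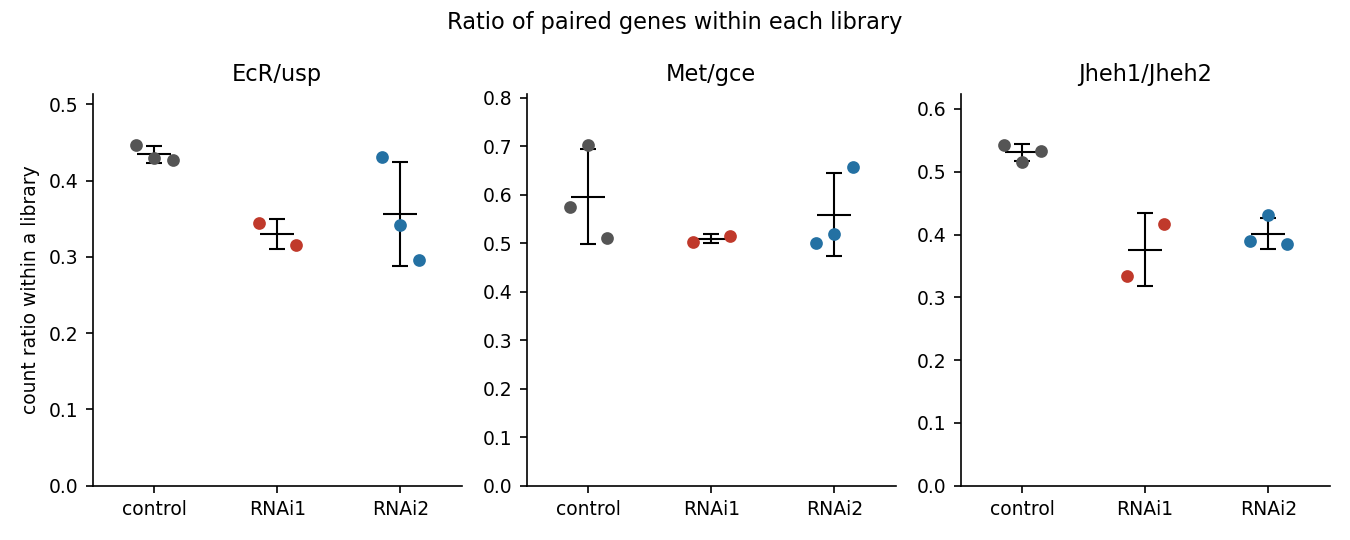
Ratio of the counts of paired genes within each library (linear axes from 0) for EcR/usp, Met/gce and Jheh1/Jheh2 in the 3 groups, with a point for each library and the mean ± SD. The 5 knockdown ratios of Jheh1/Jheh2 lie at 0.335 to 0.43, below the control ratios of 0.516 to 0.543.

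Jheh1, Jheh2 and a further epoxide hydrolase gene, Jheh3, follow each other on the same strand in the Ensembl annotation of the later BDGP6 assembly, which was used for gene order alone. Jheh3 went from 22.7 ± 3.76 CPM among controls (mean ± SD, n = 3) to 9.68 ± 0.769 CPM for row_RNAi1 (SD, n = 2) and 20.02 ± 4.21 CPM for row_RNAi2 (SD, n = 3). It fell in row_RNAi1 by 1.22 on the log2 scale (edgeR adjusted p = 1.93e-05), and had -0.21 in row_RNAi2 (adjusted p = 0.455). The difference between the lines was 1.01 (adjusted p = 0.000387). Of the coding genes beside the cluster, MetRS, CG15084 and CG43071 were tested, and none was called in row_RNAi1, at 0.13 to 0.17 for MetRS and CG43071 and 0.11 for CG15084. CG43071 fell in row_RNAi2 by 0.41 (adjusted p = 0.00483), and CG18190 and CG43069 had too few reads to test. These flanking genes were picked by position after the values of the Jheh genes were known. Reads could be shared between the Jheh paralogs, and an antisense RNA gene, asRNA:CR46485, overlaps Jheh1 and Jheh2, whose reads cannot be separated where strand use is not stated.

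**Figure D3:**
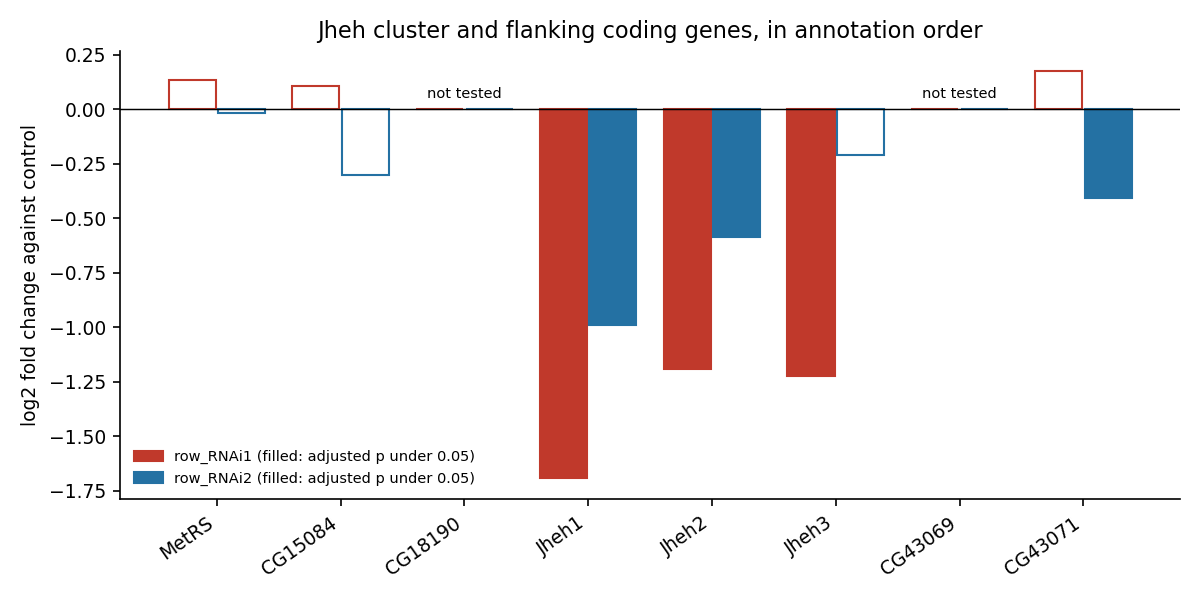
Log2 fold change against control (linear axis) in row_RNAi1 and row_RNAi2 for Jheh1, Jheh2, Jheh3 and the flanking coding genes in the order of the annotation, with filled bars for an adjusted p under 0.05. The bars of the 3 Jheh genes reach from -0.21 to -1.69, and those of the tested flanking genes stay between -0.41 and 0.17.

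Jhe encodes the esterase that cleaves the methyl ester of juvenile hormone. It was read at 24, 21 and 22 counts in the controls, 125 and 123 counts in row_RNAi1, and 16, 29 and 53 counts in row_RNAi2. In CPM these were 3.15, 2.17 and 2.46 in controls, 7.57 and 7.11 in row_RNAi1, and 2.62, 2.62 and 4.72 in row_RNAi2. Both row_RNAi1 libraries lay above every other library, and within row_RNAi2 replicate 3 lay above the controls while the other 2 lay among them. Against the controls alone, 47.7% of all genes had the row_RNAi1 pair wholly on 1 side. Jhe rose in row_RNAi1 by 1.51 on the log2 scale (SE 0.26, edgeR quasi-likelihood adjusted p = 0.000329). In row_RNAi2 its value was 0.41 (SE 0.29, adjusted p = 0.472), with a 95% interval from -0.19 to 1.02.

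The difference in Jhe between the lines was -1.10 (SE 0.25, edgeR quasi-likelihood adjusted p = 0.00621), and it was not called without row_RNAi1 replicate 1 (adjusted p = 0.0723). The average over the lines, 0.96 (SE 0.24, adjusted p = 0.00915), was not called without control replicate 2 (adjusted p = 0.0565) or with all knockdown libraries as 1 group (adjusted p = 0.146). Without row_RNAi2 replicate 3 the value in row_RNAi2 was 0.03. The next gene on the same strand, the tandem copy Jhedup, stood at 10.03 ± 2.88 CPM among controls (mean ± SD, n = 3), 9.76 ± 3.44 CPM for row_RNAi1 (SD, n = 2) and 4.22 ± 1.09 CPM for row_RNAi2 (SD, n = 3). Jhedup fell in row_RNAi2 by 1.18 on the log2 scale (edgeR adjusted p = 0.00617) and had -0.02 in row_RNAi1 (adjusted p = 0.962), so the 2 adjacent genes were called in different lines and in opposite directions.

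Of markers of the fat body, the main metabolic tissue of the fly, 12 of the 14 listed were found. Among the 10 tested, 5 were higher and 2 lower averaged over the lines, where 9.24% of all genes were higher and 8.56% lower. The list summed to 89175 to 124400 CPM in controls, 113961 to 141557 CPM in row_RNAi1 and 120247 to 152014 CPM in row_RNAi2, most of it yolk protein reads. Without the yolk genes the other 9 summed to 5453 to 6168 CPM in controls, 6420 to 7809 CPM in row_RNAi1 and 10338 to 12211 CPM in row_RNAi2. The members went different ways. Lsp2, a storage protein gene, went from 1167 CPM in controls to 1208 CPM in row_RNAi1 and 5459 CPM in row_RNAi2, and makes up most of the higher sum in row_RNAi2. Rfabg, the lipophorin gene, and bmm, a lipase gene, were higher in both lines, at 162% and 148% and at 218% and 138% of control. The other called rises on average were Yp3 (log2 0.63, edgeR adjusted p = 0.000253) and FASN1 (log2 0.30, adjusted p = 0.00487). Lsd-1, a lipid droplet protein gene, fell with Jheh1 and Jheh2, to 44.4% and 56.9% of control, as did to, at 49.9% and 69.4%. On average Yp1, Yp2 and Desat1 were not called. Hemocyte markers (all 6 found) summed to 205 to 221 CPM in controls, 234 to 247 CPM in row_RNAi1 and 173 to 180.4 CPM in row_RNAi2, and midgut markers (9 of 10 found) to 40.4 to 52.1 CPM over all libraries. The part of these markers in the results was not tested. In heads as a whole, fewer cells of a type and less RNA per cell cannot be told apart.

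Neither ecdysone receptor gene passed the test. EcR, the subunit that binds the hormone, stood at 9.46, 9.40 and 9.15 CPM in controls, 7.87 and 6.99 CPM in the row_RNAi1 pair, and 7.71, 7.51 and 6.67 CPM in row_RNAi2. All 5 knockdown libraries lay below all 3 controls, an arrangement in 1 direction or the other that 17.2% of all genes had. Row_RNAi1 held 79.6% and row_RNAi2 78.2% of the control mean. The log2 fold change averaged over the lines was -0.35 (SE 0.13, 95% interval -0.62 to -0.07), and it did not pass over all genes (edgeR quasi-likelihood adjusted p = 0.0814). Permuting the 5 and 3 libraries, exact and two-sided, gave p = 0.0179, the smallest it can give. At 47 to 130 counts per library, counting alone gives EcR a spread of 1.04 CPM between control libraries, more than the 0.161 CPM observed.

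The partner gene usp stood at 21.1, 21.9 and 21.4 CPM in controls, 22.9 and 22.1 CPM in the row_RNAi1 pair, and 17.9, 21.99 and 22.5 CPM in row_RNAi2. The controls lay inside the range of the knockdown libraries. The log2 fold change was 0.07 in row_RNAi1 (95% interval -0.15 to 0.28, edgeR adjusted p = 0.719) and -0.03 in row_RNAi2 (-0.24 to 0.18, adjusted p = 0.924). The actinin gene Actn overlaps usp on the same strand in the annotation, and had 58.0 ± 3.38 CPM among controls (mean ± SD, n = 3), 57.5 ± 0.887 CPM for row_RNAi1 (SD, n = 2) and 59.3 ± 8.49 CPM for row_RNAi2 (SD, n = 3).

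The early ecdysone gene Eip75B, a nuclear receptor that binds heme, was higher in row_RNAi1. It stood at 30.5, 26.5 and 22.4 CPM in controls, 34.6 and 31.4 CPM in the row_RNAi1 pair, and 27.2, 26.2 and 27.6 CPM in row_RNAi2. Both row_RNAi1 libraries lay above all controls, and 47.7% of all genes had this pair wholly above or below the controls. The row_RNAi2 libraries lay within the control range. The log2 fold change was 0.32 in row_RNAi1 (SE 0.10, edgeR quasi-likelihood adjusted p = 0.0350) and 0.03 in row_RNAi2 (SE 0.10, adjusted p = 0.917). The difference between the lines, -0.29, did not pass (adjusted p = 0.0839). The call in row_RNAi1 rested on each of several libraries. Its edgeR adjusted p was 0.0822 without control replicate 2, 0.160 without control replicate 3, 0.295 and 0.0766 without row_RNAi1 replicates 1 and 2, and 0.0511 without row_RNAi2 replicate 2. DESeq2 gave an adjusted p = 0.0686, a minimum of 5 CPM 0.0517, and the replicate number as a block 0.0856.

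Eip74EF, an ETS-domain transcription factor gene, was the shallowest of the receptor and response genes, at 27 to 74 counts per library. Its levels were 5.12, 3.93 and 3.01 CPM in controls, 4.06 and 4.28 CPM in the row_RNAi1 pair, and 5.74, 5.97 and 5.07 CPM in row_RNAi2. Only control replicate 1 reached into the row_RNAi2 range. The log2 fold change in row_RNAi2 was 0.49 (SE 0.22, 95% interval 0.01 to 0.96), which did not pass over all genes (edgeR adjusted p = 0.223), and it was 0.07 in row_RNAi1 (-0.44 to 0.57, adjusted p = 0.889).

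**Figure D4:**
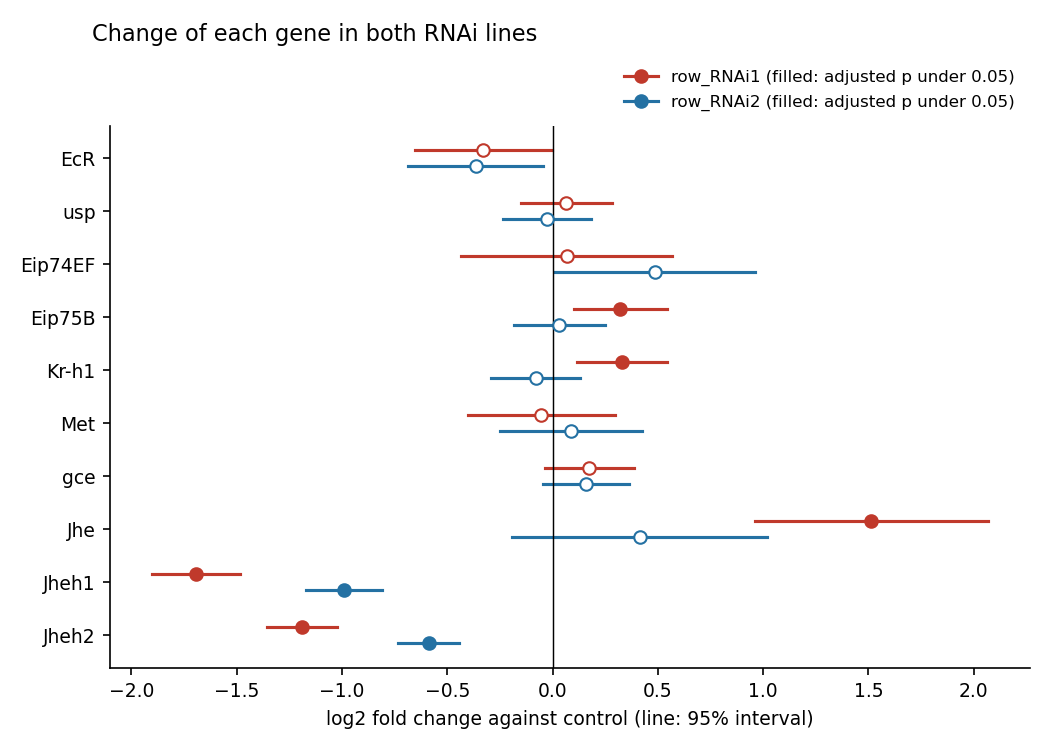
Log2 fold change of each of the 10 genes against control (linear axis) in row_RNAi1 and row_RNAi2, with 95% intervals from the edgeR fit and filled points for an adjusted p under 0.05. Jheh1 and Jheh2 are filled to the left of 0 in both lines, and Jhe, Kr-h1 and Eip75B are filled to the right of 0 in row_RNAi1.

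The juvenile hormone receptor genes did not pass in either line. Met stood at 9.59, 11.3 and 8.60 CPM in controls, 9.50 and 9.48 CPM in the row_RNAi1 pair, and 8.69, 9.68 and 12.5 CPM in row_RNAi2, and the groups overlapped. Its log2 fold change was -0.05 in row_RNAi1 (95% interval -0.40 to 0.30, edgeR adjusted p = 0.872) and 0.09 in row_RNAi2 (-0.25 to 0.43, adjusted p = 0.832). Its paralog gce stood at 16.7, 16.01 and 16.9 CPM in controls, 18.9 and 18.4 CPM in the row_RNAi1 pair, and 17.4, 18.6 and 19.0 CPM in row_RNAi2. All 5 knockdown libraries lay above the 3 controls for gce (exact two-sided permutation p = 0.0179, not adjusted over the 10 genes). The log2 fold change over both lines was 0.17 (95% interval -0.01 to 0.35), and the edgeR test did not call gce (adjusted p = 0.219). Counting alone gives gce a spread of 1.38 CPM between control libraries, more than the 0.444 CPM observed. With EcR, Jheh1 and Jheh2, gce made 4 of the 10 genes for which all knockdown libraries lay on 1 side of the controls, beside the 17.2% of all genes given for EcR. Taken against the controls alone, row_RNAi1 did not overlap them for 8 of the 10 genes (47.7% of all genes) and row_RNAi2 for 4 (24.4% of all genes).

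Kr-h1, the direct target of the juvenile hormone receptors, stood at 27.6, 29.96 and 25.8 CPM in controls, 36.3 and 33.6 CPM in the row_RNAi1 pair, and 23.95, 24.3 and 29.99 CPM in row_RNAi2. The row_RNAi1 libraries lay above all others, and the row_RNAi2 libraries overlapped the controls. Taken against the controls alone, the row_RNAi1 pair lay wholly on 1 side for 47.7% of all genes. Kr-h1 rose in row_RNAi1 by 0.33 on the log2 scale (SE 0.10, edgeR quasi-likelihood adjusted p = 0.0274) and had -0.08 in row_RNAi2 (SE 0.10, adjusted p = 0.730). The lines differed by -0.41 (SE 0.10, adjusted p = 0.0122).

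The rise of Kr-h1 in row_RNAi1 was not called without control replicate 1 (edgeR adjusted p = 0.0787), control replicate 3 (0.108), row_RNAi1 replicate 1 (0.242) or row_RNAi1 replicate 2 (0.0764), or with DESeq2 (adjusted p = 0.0578). The difference between the lines was not called without row_RNAi1 replicate 1 (adjusted p = 0.178), row_RNAi1 replicate 2 (0.0558) or row_RNAi2 replicate 2 (0.0786). The symbol CG45075, which overlaps Kr-h1 on the same strand in the annotation, had counts equal to those of Kr-h1 in 5 of 8 libraries and within 2 counts in the others, so the reads given to Kr-h1 cannot be told apart from those of CG45075.

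Between the lines, 4 of the 10 genes differed, against 11.3% of all genes. Jheh1 and Jheh2 were higher in row_RNAi2, as were 4.98% of all genes, and Jhe and Kr-h1 lower, as were 6.33%. All libraries of one line lay beyond those of the other for 6 of the 10 genes, and for 39% of all genes. Row_RNAi1, the line with the larger changes in each of these 4, held 5.08 ± 1.21 CPM of row (SD, n = 2), and row_RNAi2 held 7.43 ± 1.27 CPM (SD, n = 3), a difference that did not pass (log2 0.54, edgeR adjusted p = 0.104). The row_RNAi1 libraries were also the deepest, and the part of depth in these differences was not tested. Without row_RNAi1 replicate 1, the count of genes that differed was 2, namely Jheh1 and Jheh2.

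Genes with the most similar pattern were sought for Jheh1, Jheh2 and Jhe, the 3 of smallest p, by Pearson correlation of log2(CPM + 1) over the 8 libraries among 7437 other genes of at least 5 CPM. These values describe 3 groups more than 8 independent points, since the group means carry most of them, and the libraries share depth and controls. For Jheh1 they were CG17108 (r = 0.996), CG32523 (r = 0.994) and Inos, the inositol phosphate synthase gene (r = 0.994). For Jheh2 they were CG1791 (r = 0.998), CG9676 (r = 0.997) and Mtpalpha, a gene of mitochondrial fatty acid oxidation (r = 0.995). CG32523 went from 114 CPM in controls to 34.9 and 61.0 CPM in the lines, close to the levels of Jheh1, while Inos went from 301 to 173 and 221 CPM. For Jhe they were the immune-induced peptide genes IM1 (r = 0.966), IM2 (r = 0.964) and IM3 (r = 0.964). IM1 went from 591 CPM in controls to 1844 CPM in row_RNAi1 and 751 CPM in row_RNAi2.

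Beyond the 10 genes, 6 lists held 94 further symbols of the hormone pathways, of which 72 were tested. Averaged over the lines 8 were higher and 12 lower, with a median log2 fold change of -0.05, and all genes are called at 17.8% in this contrast. In row_RNAi1 10 were higher and 16 lower, where 11.2% of all genes were higher and 10% lower. In row_RNAi2 4 were higher and 6 lower, where 5.49% of all genes were higher and 5.34% lower. Symbols in more than 1 list are counted once here, and the plot of the lists shows their values. The members moved both ways in most lists.

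**Figure D5:**
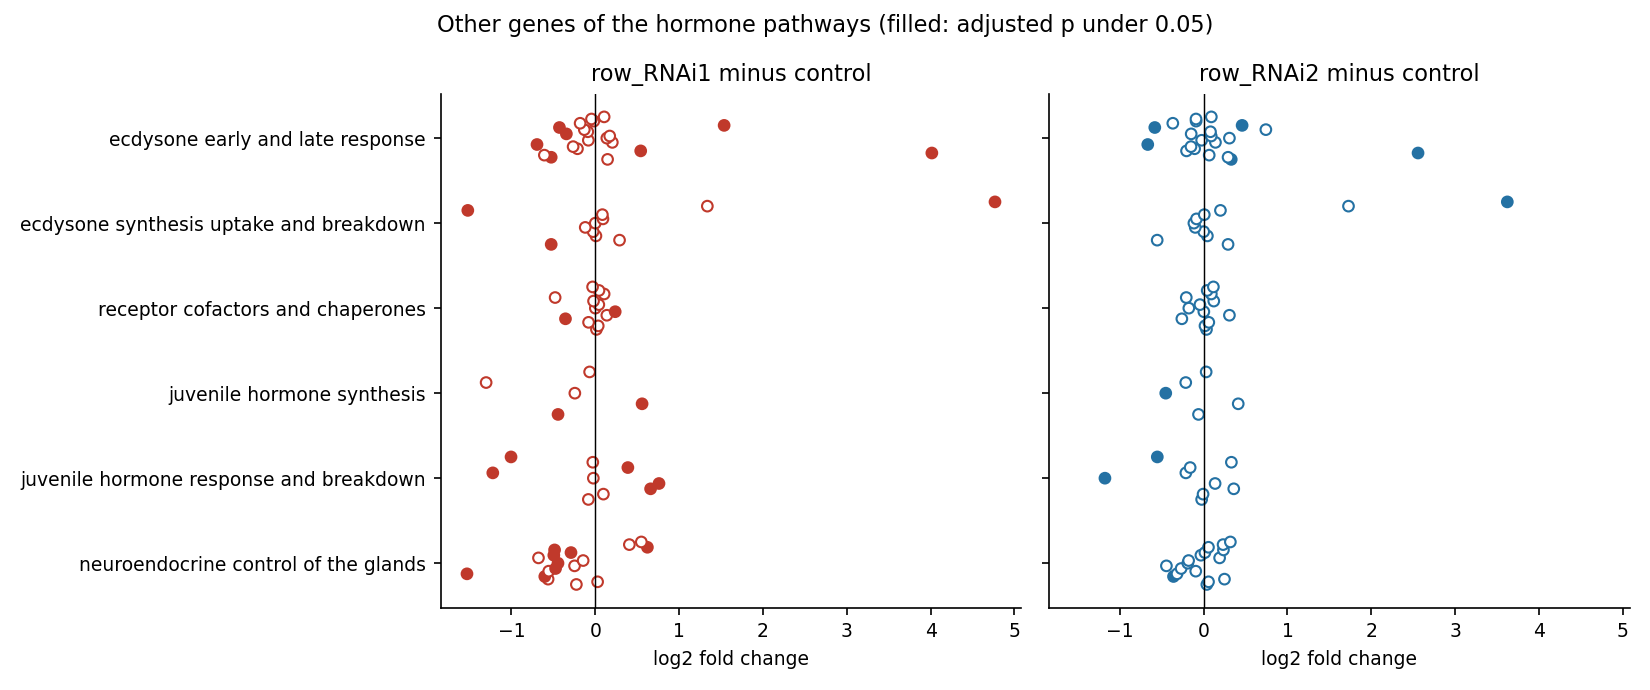
Log2 fold change against control (linear axes) in row_RNAi1 (left) and row_RNAi2 (right) of the tested genes of 6 hormone pathway lists, with a point for each gene and filled points for an adjusted p under 0.05. Of the cofactor list, 2 of 13 points are filled in row_RNAi1 (21.2% of all genes called) and 0 in row_RNAi2 (10.8%). The points beyond 2 to the right are Edg91 and spok.

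Among 21 tested genes of the ecdysone response, 3 were higher and 2 lower averaged over the lines, with a median log2 fold change of -0.05. Of all genes 9.24% were higher and 8.56% lower in this contrast. Edg91, a cuticle gene induced after the ecdysone pulse before pupation, rose from 1.004 ± 0.307 CPM among controls (mean ± SD, n = 3) to 16.8 ± 2.64 CPM for row_RNAi1 (SD, n = 2) and 6.11 ± 1.17 CPM for row_RNAi2 (SD, n = 3). The average log2 fold change of Edg91 was 3.29 (edgeR adjusted p = 2.69e-08). ImpL3, the lactate dehydrogenase gene, rose by 0.998 on average (adjusted p = 3.87e-07), and with all knockdown libraries as 1 group it was not called (adjusted p = 0.0598). Eip71CD, a methionine sulfoxide reductase gene, fell from 53.6 ± 1.62 CPM among controls (mean ± SD, n = 3) to 33.1 ± 1.67 CPM for row_RNAi1 (SD, n = 2) and 33.6 ± 1.63 CPM for row_RNAi2 (SD, n = 3), and ImpL2, whose product binds insulin-like peptides, fell by 0.51 on the log2 scale (edgeR adjusted p = 1.74e-05). The transcription factor genes of the response cascade, br, Eip78C, Eip93F, Hr38, Hr39 and ftz-f1, which are outside the naming rule and are given for their role, ran from -0.27 (br) to 0.22 (Hr38) on average, and none of these 6 was called. Of the other transcription factor genes in the list, likewise outside the rule, Blimp-1 rose by 0.24 on average (edgeR adjusted p = 0.0493) and by 0.33 in row_RNAi2 (adjusted p = 0.0233), and Hr46 fell in row_RNAi1 by 0.35 (adjusted p = 0.0246).

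Of 11 tested genes for synthesis, uptake and breakdown 1 was called on average, beside 17.8% of all genes. This was spok, a cytochrome P450 gene of the early steps of synthesis. It had 1 count over all controls, 45 in row_RNAi1 and 17 in row_RNAi2. In counts scaled for depth the ratio to control was 34.9 for row_RNAi1 (95% counting interval 5.96 to 1410) and 15.7 for row_RNAi2 (2.46 to 657). The interval covers counting error only. Without row_RNAi1 replicate 1, row_RNAi2 replicate 2 or row_RNAi2 replicate 3, or with a minimum of 5 CPM, 0 of the list were called on average, since spok had too few reads to be tested. The P450 genes phm and sad, for later steps, had 45 and 9 counts over all controls. On average phm had -0.66 (edgeR adjusted p = 0.279) and sad 1.53 (adjusted p = 0.0674), and phm fell in row_RNAi1 by 1.52 (adjusted p = 0.0339). That fall comes from 4 and 16 counts of phm in the row_RNAi1 pair. In counts scaled for depth its ratio to control there was 0.345 (95% counting interval 0.193 to 0.596). Oatp74D, the importer that brings ecdysone into cells, stood at 14.3 ± 0.422 CPM among controls (mean ± SD, n = 3), 13.2 ± 2.40 CPM for row_RNAi1 (SD, n = 2) and 13.5 ± 1.39 CPM for row_RNAi2 (SD, n = 3), at -0.11 on average (adjusted p = 0.601). Cyp18a1, which inactivates ecdysone and is named for that role outside the rule, fell in row_RNAi1 by 0.53 (adjusted p = 0.0196) and had 0.29 in row_RNAi2 (adjusted p = 0.242).

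Among 13 tested cofactors and chaperones of the receptors 1 was called on average, beside 17.8% of all genes. This was FK506-bp1, which fell by 0.31 on the log2 scale (edgeR adjusted p = 0.0116). It was not called without control replicate 2 (0.0608) or control replicate 3 (0.0725), or with all knockdown libraries as 1 group (0.0528). Without row_RNAi1 replicate 2, which leaves 1 library in that line, its average log2 fold change was -0.26, and no call is read from that fit. The chaperone genes Hsp83 and Hsc70-4 had -0.09 (adjusted p = 0.374) and 0.12 (adjusted p = 0.186), and rig, a cofactor of the ecdysone receptor, had -0.34 (adjusted p = 0.327). In row_RNAi1 2 of the 13 were called by edgeR, beside 21.2% of all genes. Hsc70-4 rose by 0.24 (adjusted p = 0.0228) and FK506-bp1 fell by 0.36 (adjusted p = 0.0132). In row_RNAi2 0 of the 13 were called by edgeR, beside 10.8% of all genes, with 2 at an unadjusted p under 0.05, and 0 by DESeq2 or limma voom. The coactivator gene tai, named for its role outside the rule, had 0.04 on average (adjusted p = 0.852).

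Juvenile hormone is made in the corpora allata, and jhamt, the gene for its methyltransferase, had 27 counts over all controls, 14 in row_RNAi1 and 25 in row_RNAi2 (average log2 -0.76, edgeR adjusted p = 0.300). Of 5 tested genes 1 was higher and 2 lower on average, where 9.24% of all genes were higher and 8.56% lower. Fpps, the farnesyl diphosphate synthase gene, rose by 0.49 on the log2 scale (adjusted p = 0.0145), while Hmgs, an early enzyme of the mevalonate pathway, fell by 0.35 (adjusted p = 0.00553) and Aldh-III, an aldehyde dehydrogenase gene, by 0.25 (adjusted p = 0.0128). With all knockdown libraries as 1 group none of these 3 was called (adjusted p = 0.0506 for Fpps, 0.0525 for Hmgs and 0.329 for Aldh-III). Fpps was also not called without control replicate 1 (0.0922) or row_RNAi1 replicate 2 (0.0660), and Aldh-III not without control replicate 1 (0.0710), control replicate 2 (0.0547) or row_RNAi1 replicate 1 (0.0660), by their edgeR adjusted p.

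Among 9 other genes of juvenile hormone response and breakdown, 2 were higher and 2 lower on average, where 9.24% of all genes were higher and 8.56% lower. JhI-21, an amino acid transporter gene, and JhI-26, both known as juvenile hormone-inducible, rose by 0.51 (edgeR adjusted p = 0.00471) and 0.45 (adjusted p = 0.00324) on the log2 scale. JhI-26 went from 14.1 ± 1.70 CPM among controls (mean ± SD, n = 3) to 24.03 ± 1.29 CPM for row_RNAi1 (SD, n = 2) and 15.6 ± 0.850 CPM for row_RNAi2 (SD, n = 3). The gene to (takeout), of a family related to juvenile hormone binding proteins, fell by 0.78 (adjusted p = 1.06e-05), in row_RNAi1 by 1.01 and in row_RNAi2 by 0.55. The average fall of Jheh3, 0.72, was not called with all knockdown libraries as 1 group (edgeR adjusted p = 0.252), nor was the average rise of JhI-26 (adjusted p = 0.188).

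Of 17 tested genes for neural and peptide control of the hormone glands, 1 was higher and 5 lower on average, where 9.24% of all genes were higher and 8.56% lower. The median log2 fold change of the list was -0.16, and 3 of its genes were called without control replicate 3. In row_RNAi1 the median was -0.45, with 1 higher and 7 lower, where 11.2% of all genes were higher and 10% lower. In row_RNAi2 it was 0.02, with 0 higher and 1 lower, where 5.34% of all genes were lower. AstC, for the peptide allatostatin C, which is known in other insects to inhibit juvenile hormone synthesis, fell from 37.1 ± 1.02 CPM among controls (mean ± SD, n = 3) to 24.5 ± 0.617 CPM for row_RNAi1 (SD, n = 2) and 28.5 ± 4.28 CPM for row_RNAi2 (SD, n = 3). Its average log2 fold change was -0.48 (edgeR adjusted p = 0.000329). The peptide genes Crz (corazonin), Dh31 and Ilp2 (an insulin-like peptide) fell by 0.37 (edgeR adjusted p = 0.00169), 0.32 (adjusted p = 0.00514) and 0.26 (adjusted p = 0.00520). In row_RNAi2 only AstC of the list was called, and Ilp2 stood at 97.8% of control there, against 71.0% in row_RNAi1. Dh31 was not called without control replicate 3 (0.0606), and neither Dh31 (0.0981) nor Ilp2 (0.397) was called with all knockdown libraries as 1 group, by edgeR adjusted p. The head neuron and eye markers had a median of -0.11 on average and -0.13 in row_RNAi1, with 1 and 2 of 12 lower, where 8.56% and 10% of all genes were lower. The part of these markers in the falls above was not tested.

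Among the 18 nearest coding neighbours of the 10 genes that are not themselves among them, 16 were tested and 5 called averaged over the lines, 2 higher and 3 lower, beside 17.8% of all genes. These were picked by annotation order after the values had been seen. CG4325, next to usp, rose by 1.14 on the log2 scale (edgeR adjusted p = 5.22e-08), and Cyp6w1, a cytochrome P450 gene next to EcR, fell by 1.73 (adjusted p = 2.56e-11). The others were Ptp10D beside Met, which rose by 0.49 (adjusted p = 0.0267), Kr-h2 beside Kr-h1, which fell by 0.24 (adjusted p = 0.0184), and Jheh3.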

How the data were processed

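Per the labels' protocols, head RNA was taken up in TRI Reagent and sequenced as RNAtag-Seq libraries. The authors deposited 1 table of raw read counts per gene symbol, with all 8 columns used. Per the submitters' processing notes, STAR and build dm3 were used. For the counting program, the annotation and strand use, nothing is given in the sources used here. The 10 genes, the lists, the rule for named genes and the tests were chosen with earlier results of these data known. The rule named row, the 10 genes, up to 4 genes per list with the smallest average p, and the genes most alike in pattern. Counts were filtered with filterByExpr, scaled by TMM and fitted in edgeR 4.0.16 (R 4.3.3) with 3 groups. Quasi-likelihood tests gave 4 contrasts, and SE came from the F statistic. The script was tested on simulated data. Alternatives used DESeq2 1.42.0, limma voom 3.58.1, RLE factors, other filters, replicate blocks, 2-group and 1-group models, and single libraries left out. Gene order and overlap came from the Ensembl annotation of BDGP6, without coordinates, since builds differ. Depth was 6230666 to 18046699 counts per library.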

Additional observations from a re-analysis of the deposited data

Results flagged for a closer look

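The lines differed from each other, by the edgeR quasi-likelihood test of row_RNAi2 minus row_RNAi1 with Benjamini-Hochberg adjustment, for 4 of the 10 genes and 11.3% of all genes. The log2 differences were 0.704 for Jheh1 (adjusted p = 9.07e-05), 0.603 for Jheh2 (adjusted p = 3.82e-05), -1.10 for Jhe (adjusted p = 0.00621) and -0.408 for Kr-h1 (adjusted p = 0.0122).

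Among the other named hormone pathway genes, the same test found differences of 1.01 for Jheh3, -0.623 for JhI-26, 0.452 for to, 0.383 for Aldh-III, 0.462 for Ilp2 and -0.235 for Hsc70-4. It also found -1.08 for ImpL3, -1.46 for Edg91 and 1.72 for phm, the last from 20 counts in row_RNAi1 and 57 in row_RNAi2. The groups of 2 or 3 libraries were too small for a test of single outlying libraries.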

How the results depend on the processing

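The falls of Jheh1 and Jheh2 were called in both lines, on average and between the lines under all 15 alternatives run for each. A minimum of 5 CPM left Jhe untested, and Eip74EF, which was not called in the main fit. It gave Eip75B in row_RNAi1 an edgeR adjusted p of 0.0517. The number of the 10 genes called in row_RNAi1, 5, was 3 with DESeq2 and 3 with that minimum. With single libraries left out it was 3 to 5, the average count 2 to 3 (main 3), the count in row_RNAi2 2, and that between the lines 2 to 4 (main 4). Exact permutation p under 0.05 was reached by 4 of the 10 genes, and by 3 to 4 with single libraries left out. The 4 were EcR, gce, Jheh1 and Jheh2, each at an exact permutation p = 0.0179, the smallest possible. For each, all knockdown libraries lay on the same side of the controls, as for 17.2% of all genes. Neither EcR nor gce was called by edgeR. Deviations from the group means of same-numbered libraries had correlations of -0.13 to 0.06. In groups of 2 or 3 libraries these deviations are tied to each other, so they cannot decide whether the replicate numbers mark pairs. With the replicate block 3, 4, 2 and 4 genes were called on average, in row_RNAi1, in row_RNAi2 and between the lines.

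Signs turned only for genes that were not called. With the replicate block Eip74EF in row_RNAi1 was -0.044 and EcR between the lines 0.012, and with only the 2 lines fitted gce between the lines was 0.00016. With single libraries left out, Met ran from -0.069 to 0.14 on average, -0.14 to 0.065 in row_RNAi1, -0.086 to 0.21 in row_RNAi2 and -0.033 to 0.22 between the lines. Eip74EF in row_RNAi1 ran from -0.094 to 0.25, Eip75B in row_RNAi2 from -0.055 to 0.14, and usp from -0.011 to 0.058 on average and -0.086 to 0.050 in row_RNAi2. Between the lines EcR ran from -0.12 to 0.052 and gce from -0.040 to 0.013. Jhe and Eip74EF, at 16 to 125 and 27 to 74 counts, are the genes that depth limits most. With all knockdown libraries as 1 group 834 of all genes were called in place of 1680, and in the pathway lists 3 in place of 5 (ecdysone response), 0 in place of 1 (cofactors), 0 in place of 3 (juvenile hormone synthesis), 2 in place of 4 (juvenile hormone response) and 2 in place of 6 (neural and peptide control). Without row_RNAi1 replicate 1 or 2, 1226 and 1275 genes were called in row_RNAi1 in place of 2001. Between the lines it was 555 each in place of 1068. A minimum of 5 CPM left 1 ecdysone synthesis gene in place of 3 in row_RNAi1. Ratios without single libraries were added after seeing the data.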
